A study of Mus musculus with 6 samples.

Results

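Receptors and markers of testicular macrophages were followed in the exon array data of Dazap1 mutant testes. The genes were Csf1r, Cx3cr1, Mrc1, Cd163, Vsig4, Cd14, Cd68, Lyz2, Adgre1 and Ptprc, taken by name as the usual markers of these cells. A probe set, the short stretch of a gene that the array reads, was counted for a gene where the annotation of the array gave it that symbol alone. Adgre1 is written Emr1 there. All 10 genes were found, among 15207 genes with at least 3 probe sets, and they held 180 of the 209279 probe sets with 1 symbol. Whole testes of 3 adult Fn mice (Fn adult) were set against whole testes of 3 wild-type mice aged 21 days after birth (Wt P21), with 1 Affymetrix Mouse Exon 1.0 ST array for each. Fn mice were homozygous for the Dazap1 floxed with neo allele, which makes an aberrant DAZAP1 protein with an insert between its RNA-binding domains. Both groups shared a mixed background of C57BL/6 and 129 strains. By the study, only a minority of homozygotes reach adulthood, and these are growth retarded, with small testes that lack haploid germ cells. Young wild-type testes were chosen for a similar makeup of germ cells, so genotype and age differed together and cannot be told apart here.

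Macrophages are the main immune cells of the testis. They lie beside the Leydig cells between the tubules and along the tubule wall, and their number grows as the testis matures. Their survival depends on CSF1R, the receptor for the growth factors CSF1 and IL-34. Interstitial macrophages are known for scavenger receptors such as the mannose receptor, and they take part in clearing debris, in keeping the tissue tolerant to germ cells and in supporting steroid synthesis. In RNA of a whole testis, more macrophages, a larger share of them in a smaller testis and more RNA of a gene per macrophage cannot be told apart.

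Myeloid genes are widely bound by PU.1, an ETS family factor that recognizes the core GAGGAA. The 250 bases before the start of the 3 genes with the largest rises below are shown for this reason, from RefSeq on build GRCm38.p6, with each copy of GAGGAA or of its reverse complement TTCCTC in capitals.
Vsig4 (chrX:96293439-96293688, minus strand): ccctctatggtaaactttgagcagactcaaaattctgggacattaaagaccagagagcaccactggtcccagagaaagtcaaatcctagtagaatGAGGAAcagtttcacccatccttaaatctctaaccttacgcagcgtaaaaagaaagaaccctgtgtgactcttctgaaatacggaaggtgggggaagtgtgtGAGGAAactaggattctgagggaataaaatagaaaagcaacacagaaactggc
Mrc1 (chr2:14229164-14229413, plus strand): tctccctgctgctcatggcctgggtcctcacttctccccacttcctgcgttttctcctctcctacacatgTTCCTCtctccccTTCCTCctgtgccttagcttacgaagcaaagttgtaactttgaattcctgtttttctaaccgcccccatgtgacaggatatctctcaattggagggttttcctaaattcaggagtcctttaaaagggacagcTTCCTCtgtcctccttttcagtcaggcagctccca
Lyz2 (chr10:117282273-117282522, minus strand): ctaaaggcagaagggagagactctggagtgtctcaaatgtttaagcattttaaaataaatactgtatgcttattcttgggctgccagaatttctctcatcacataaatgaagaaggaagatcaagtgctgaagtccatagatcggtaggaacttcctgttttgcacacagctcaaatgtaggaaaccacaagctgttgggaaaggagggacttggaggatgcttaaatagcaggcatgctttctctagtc
The Vsig4 stretch held 2 copies on the gene's strand and the Mrc1 stretch 3 copies on the opposite strand. No copy was found in the Lyz2 stretch, which says only that these letters are not in this window. Of the 7 genes whose promoters were read here, 4 held a copy (Vsig4, Mrc1, Cd68 and Ptprc). Counted by promoter, as Ptprc has 2 and only 1 of them held it, this was 4 of 8, where 23.3% of all 32851 promoters held one. No promoter of Csf1r, Cd14 or Adgre1 was read, so copies in theirs are not known. No copy overlapped another. A match of letters is no binding site, and binding was not measured.

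The level of a gene was the median log2 intensity of its probe sets on an array, and differences are Fn adult minus Wt P21, tested with limma over all genes. A gene was said to rise or fall where its adjusted p (Benjamini-Hochberg) was under 0.05. The array medians lay between 8.76 and 9.10 and the lower quartiles of the probe sets between 7.36 and 7.56 on the log2 scale. No background level is known for these values, so levels under the lower quartile are given without a fold. Over all genes, 8.07% rose and 0.914% fell, and the median difference was 0.07. After quantile normalization the median was -0.05, a shift of -0.12, and the share of rises among the called genes was 64.6% in place of 89.8%. Wt P21 replicate 3 read higher than the other wild-type arrays, by a median of 0.14 over all genes. The labels call the arrays of a group biological replicates.

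Macrophage genes stood higher in Fn adult testes as a group. Of the 10 genes, 9 rose and none fell, where 8.07% of all genes rose, and Cd14 was the one that did not pass. All 10 had every Fn adult array above every Wt P21 array, which held for 25.6% of all genes. Their median difference was 0.85 on the log2 scale, against 0.07 for all genes, and 0.69 against -0.05 after quantile normalization. The complement receptor Vsig4 led with a 3.26-fold rise, followed by lysozyme (Lyz2) at 2.49-fold and the mannose receptor Mrc1 at 2.21-fold. Without Wt P21 replicate 3, 9 genes rose as well, where 2455 of all 15207 genes rose, against 1227 over all arrays. The same background holds for list genes said below to rise without that array. Without any one of the Fn adult arrays 5 genes passed, and these were Csf1r, Mrc1, Lyz2, Vsig4 and Ptprc each time. Over all genes 306, 441 and 391 then rose, without Fn adult replicates 1, 2 and 3.

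**Figure D1:**
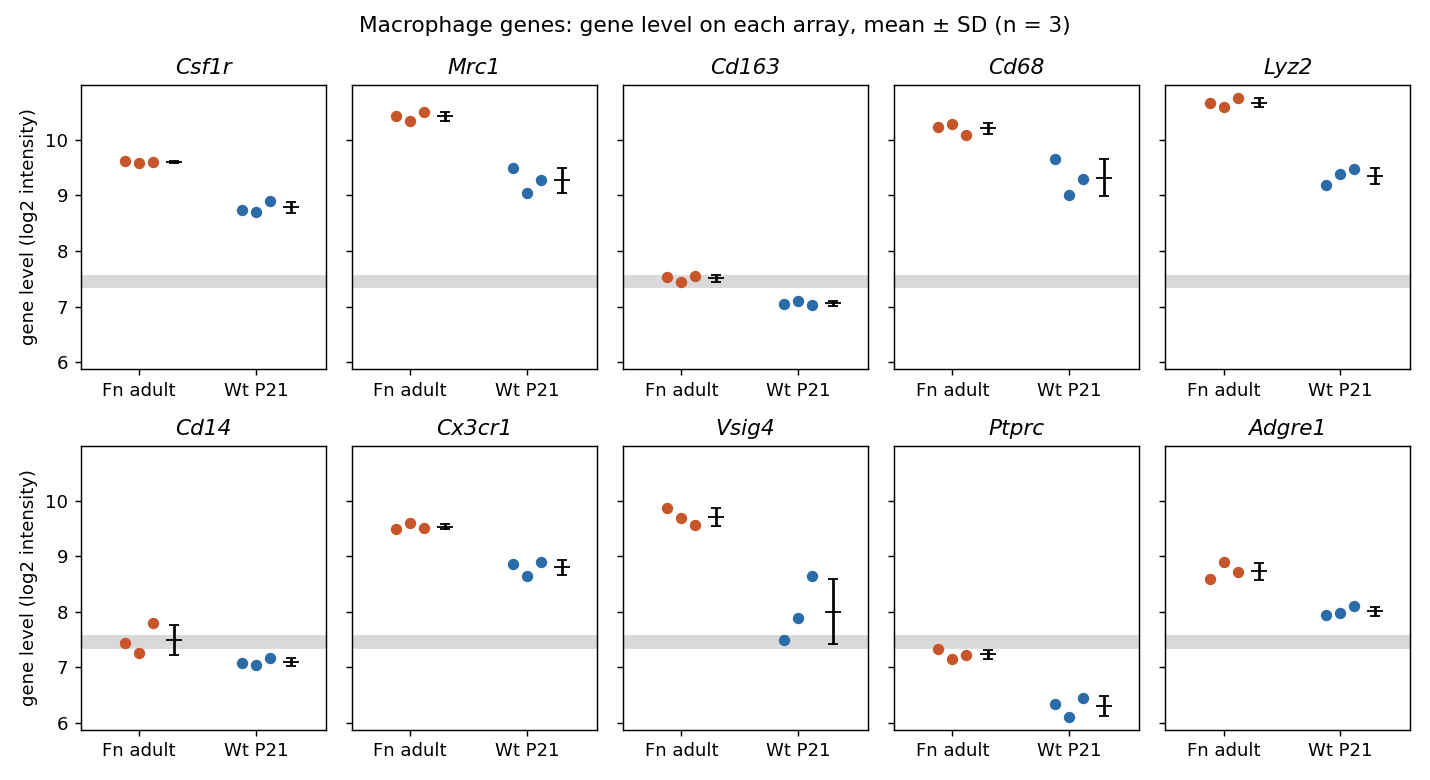
Gene level (log2 intensity, y axis) of each macrophage gene on the 3 Fn adult arrays (orange) and the 3 Wt P21 arrays (blue), with the mean and SD beside them and the range of the lower quartiles of the arrays, 7.36 to 7.56, as a grey band. The Fn adult points lie above the Wt P21 points in all 10 panels, and the Cd163, Cd14 and Ptprc points lie at or under the band, except for 1 Fn adult point of Cd14.

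**Figure D2:**
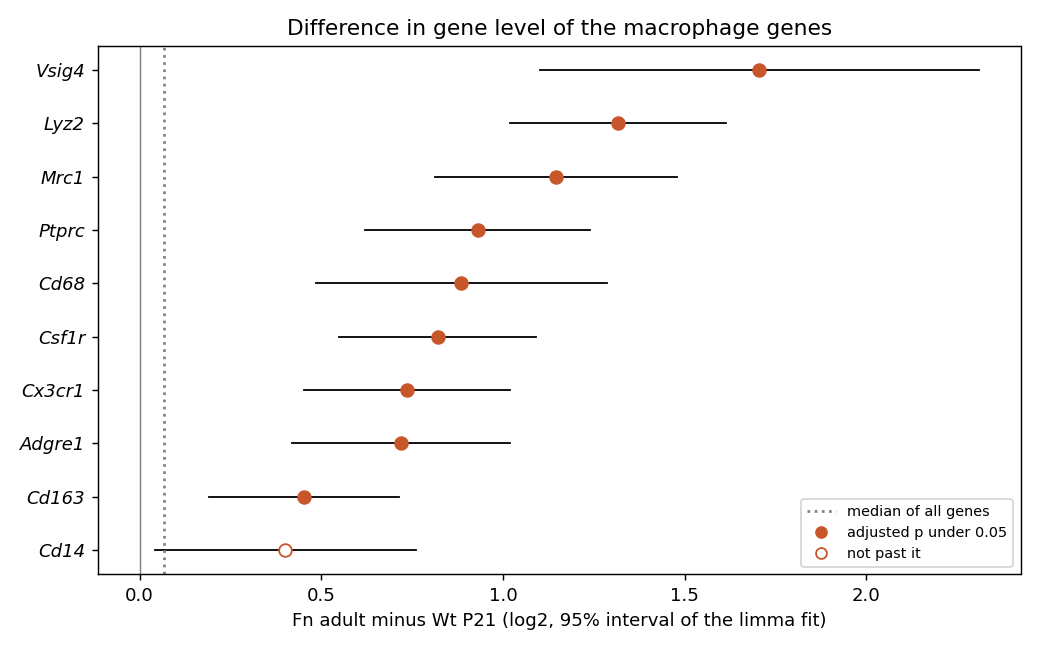
Difference in gene level, Fn adult minus Wt P21 (log2, x axis), of each macrophage gene with the 95% interval of the limma fit. Filled points passed the adjusted p of 0.05 and the open point, Cd14, did not. The dotted line is the median of all genes, 0.07.

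Csf1r and Cx3cr1, receptors for growth factor and chemokine signals, both rose. Csf1r, the receptor for CSF1 and IL-34, had levels of 9.62, 9.59 and 9.60 in Fn adult testes, against 8.74, 8.71 and 8.90 in Wt P21 testes. The Fn adult values lay within 0.03 of each other, and the gap between the groups was 0.69. The difference was 0.82 ± 0.12 (SE), or 1.77-fold, with a limma adjusted p of 0.00587. Cx3cr1, the receptor for the chemokine fractalkine on monocytes and macrophages, had levels of 9.50, 9.59 and 9.51 in Fn adult testes, against 8.86, 8.65 and 8.89 in Wt P21 testes. The groups stood 0.61 apart, and the difference was 0.74 ± 0.12 (SE), or 1.67-fold (limma, adjusted p = 0.0110). Cx3cr1 had only 3 probe sets, and its level was that of probe set 5433676 on every array. Its other probe sets differed by 0.45 and 0.47 and were not called.

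The ligands of these receptors did not pass. Csf1 had a difference of 0.40 with a 95% interval of 0.02 to 0.77 (limma, adjusted p = 0.163). Il34 had one of 0.28, from -0.04 to 0.59 (adjusted p = 0.244). Cx3cl1, which encodes fractalkine, had one of 0.17, from -0.24 to 0.58 (adjusted p = 0.586). These intervals include rises, so equal levels are not shown. Of 12 measured growth factor and chemokine genes, 2 rose and 10 did not pass, where 8.07% of all genes rose. The median over the list was 0.12, which was -0.03 after quantile normalization and 0.09 without Wt P21 replicate 3. Both that rose are monocyte-attracting chemokines. Ccl8 had levels of 9.66, 10.03 and 9.26 in Fn adult testes, against 6.50, 6.32 and 5.93 in Wt P21 testes. All its Wt P21 values lay under the lower quartile, so the difference of 3.40 on the log2 scale is given without a fold, and it passed in each of 12 alternative settings where it was tested (limma, highest adjusted p = 0.00252). Ccl12 rose by 1.19 (adjusted p = 0.0348), lay under the lower quartile in both groups and passed in 6 of 11 alternative settings. The monocyte chemokine Ccl2 and its receptor Ccr2 had differences of -0.21 and -0.17, and neither passed. Ccr1, another chemokine receptor, had one of 0.50 in overlapping groups and did not pass (limma, adjusted p = 0.330).

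Scavenger and complement receptors held both the strongest and one of the weakest rises. Mrc1, the mannose receptor of tissue macrophages, had levels of 10.43, 10.34 and 10.49 in Fn adult testes, against 9.49, 9.04 and 9.29 in Wt P21 testes. The lowest Fn adult array stood 0.85 above the highest Wt P21 array, and the difference was 1.15 ± 0.15 (SE), with a limma adjusted p of 0.00348. Of its 32 probe sets 29 were called higher, and all 32 had groups that did not overlap with Fn adult above, where 3.78% of all probe sets were called higher and 21.5% had such groups.

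Vsig4, a receptor for complement fragments on resident macrophages, had levels of 9.87, 9.69 and 9.56 in Fn adult testes, against 7.49, 7.88 and 8.64 in Wt P21 testes. The Wt P21 arrays spread over 1.15 and replicate 3 was the highest of them, while the Fn adult arrays spread over 0.31. The difference was 1.71 ± 0.26 (SE), with a limma adjusted p of 0.00772. Without Wt P21 replicate 3 the difference was 2.02. Of its 9 probe sets, 8 were called higher.

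Cd163, the scavenger receptor for haemoglobin bound to haptoglobin, had levels of 7.53, 7.44 and 7.56 in Fn adult testes, against 7.04, 7.10 and 7.03 in Wt P21 testes. The groups did not overlap, but 5 of the 6 values lay under the lower quartile of their array. The difference of 0.45 ± 0.11 (SE) passed narrowly (limma, adjusted p = 0.0460). It passed in 3 of 11 alternative settings, with adjusted p values up to 0.194, so this call is the least stable among the genes called. Of its 23 probe sets 3 were called, with differences of 0.96, 1.22 and 1.23, where 3.78% of all probe sets were called higher. Differences were positive in 22 (59.4% of all probe sets). In 11 the groups did not overlap, with Fn adult above (21.5% of all probe sets).

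Of the lysosomal markers, Lyz2 rose in all its probe sets and Cd68 mainly in its gene level. Lyz2 encodes lysozyme M, which breaks bacterial cell walls. It had levels of 10.67, 10.58 and 10.76 in Fn adult testes, against 9.19, 9.39 and 9.48 in Wt P21 testes. The groups stood 1.11 apart, and the difference was 1.32 ± 0.13 (SE), with a limma adjusted p of 0.00107. Its 6 probe sets were all called higher, with differences between 1.01 and 1.35 over mean levels between 8.32 and 12.18. Lyz1, the close copy of Lyz2, rose by 0.67 (limma, adjusted p = 0.0328). Another 9 probe sets carried both symbols and were left out of either level. They had a median difference of 1.15, and 8 of the 9 had groups that did not overlap, against 21.5% of all probe sets. Since the copies are alike in sequence, how much each gene adds to these values is uncertain.

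Cd68, a glycoprotein of macrophage lysosomes, had levels of 10.23, 10.29 and 10.09 in Fn adult testes, against 9.66, 9.01 and 9.30 in Wt P21 testes. The Wt P21 values spread over 0.65, and the gap between the groups was 0.43. The difference was 0.89 ± 0.18 (SE), or 1.85-fold (limma, adjusted p = 0.0197). All 9 probe sets had groups that did not overlap (21.5% of all probe sets), with differences between 0.38 and 1.08, but only probe set 4982213 was called, and the level of the gene was the value of that probe set on every array.

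Cd14, the co-receptor that hands bacterial lipopolysaccharide to Toll-like receptor 4, was the member that did not pass. It had levels of 7.43, 7.26 and 7.79 in Fn adult testes, against 7.07, 7.04 and 7.17 in Wt P21 testes. The groups stood only 0.09 apart, and 5 of the 6 values lay under the lower quartile. The difference was 0.40 with a 95% interval of 0.04 to 0.76 (limma, adjusted p = 0.147). Taking the mean over probe sets in place of the median left it at 0.40, with an adjusted p of 0.0269. None of its 5 probe sets was called.

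Of 9 other genes of the Toll-like receptor 4 pathway that were measured, 3 rose and 6 did not pass, and all had positive differences. Among all genes 8.07% rose, and 8931 of 15207 had positive differences. The median of the 9 genes was 0.43, or 0.27 after quantile normalization. Lbp, the serum protein that delivers lipopolysaccharide to CD14, was 2.34-fold higher (limma, adjusted p = 0.00507) and passed in all 13 alternative settings. Ly96, the MD-2 partner of the receptor, was 1.74-fold higher, with levels of 11.25, 11.34 and 11.39 in Fn adult testes and 10.30, 10.85 and 10.42 in Wt P21 testes. The ubiquitin ligase Traf6, which relays the signal inside the cell, was 1.63-fold higher. Ly96 passed in 8 of 13 alternative settings and Traf6 in 9. Tlr4 itself had a difference of 0.47 (adjusted p = 0.127) at a mean level under the lower quartile.

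Adgre1 and Ptprc, the surface markers most used to sort these cells, rose in their gene level. Neither passed when read from its brighter probe sets alone. Adgre1 encodes the F4/80 antigen of mouse macrophages. It had levels of 8.59, 8.89 and 8.71 in Fn adult testes, against 7.95, 7.97 and 8.11 in Wt P21 testes. The gap between the groups was 0.48, and the difference was 0.72 ± 0.13 (SE), or 1.65-fold (limma, adjusted p = 0.0144). Of its 26 probe sets 5 were called, and 22 had groups that did not overlap in the upward direction, as 21.5% of all probe sets had. Its 7 probe sets above the median probe set (8.99) had a median difference of 0.60, with none called. Read from these alone, its difference was 0.51 in groups that did not overlap, with an adjusted p of 0.0713.

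Ptprc encodes CD45, the phosphatase on all leukocytes. It had levels of 7.33, 7.16 and 7.22 in Fn adult testes, against 6.35, 6.11 and 6.45 in Wt P21 testes. The groups stood 0.71 apart, and all 6 values lay under the lower quartile. The difference was 0.93 ± 0.14 (SE; limma, adjusted p = 0.00592). Of its 37 probe sets, 25 had means under the lower quartile of all probe sets (7.50), with a median difference of 0.99, and 10 of these were called. The 7 between the lower quartile and the median had a median difference of 0.84, with 4 called. The 5 above the median had a median difference of -0.15, with none called. The gene level from these 5 alone was 9.31, 9.23 and 9.05 in Fn adult testes, against 9.07, 9.09 and 8.99 in Wt P21 testes, a difference of 0.14 in overlapping groups (limma, adjusted p = 0.449). All the called probe sets of Ptprc had means under the median.

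**Figure D3:**
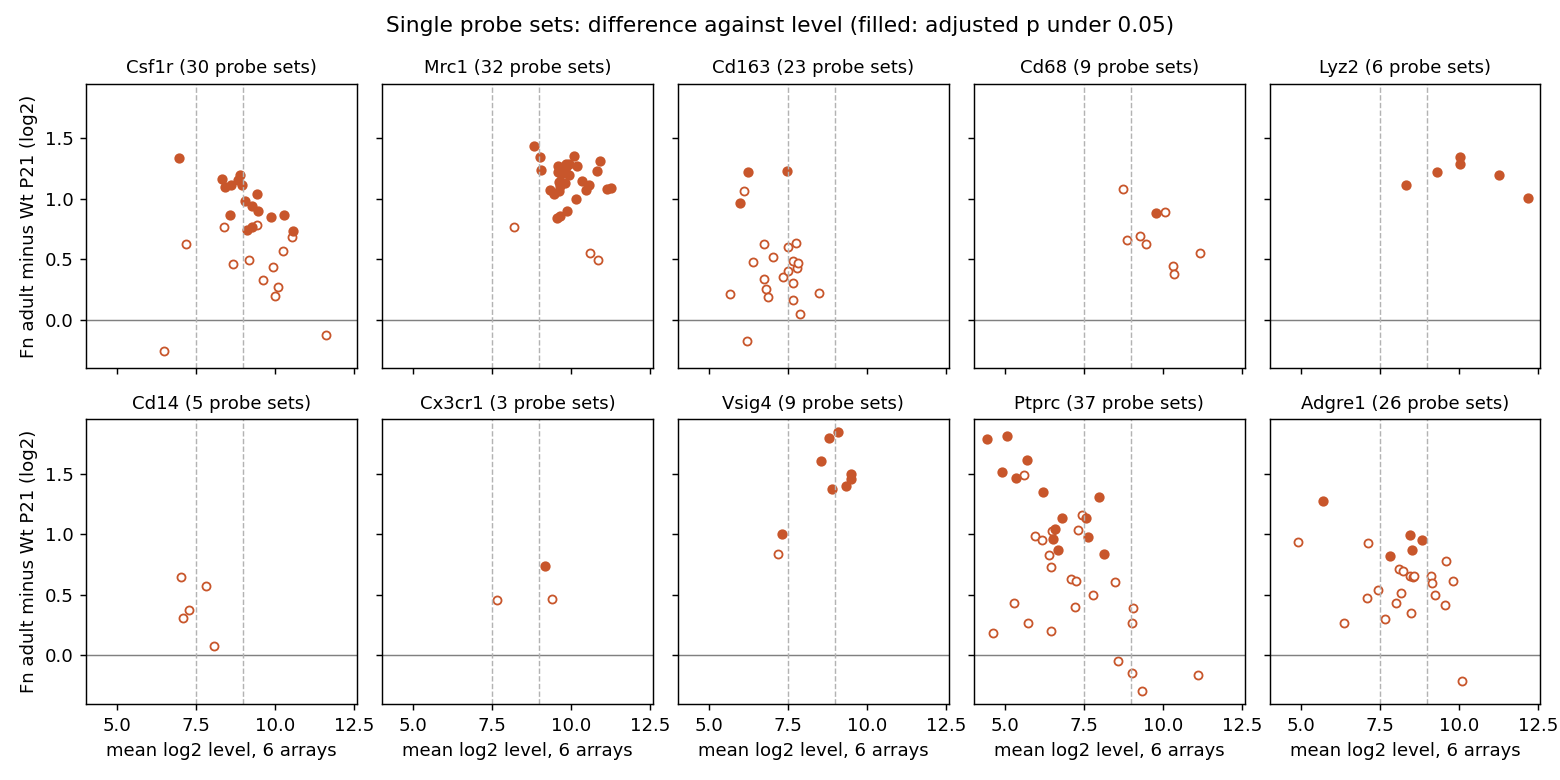
Difference of each probe set (Fn adult minus Wt P21, log2, y axis) against its mean log2 level over the 6 arrays (x axis), 1 panel per macrophage gene, with filled points for an adjusted p under 0.05. Dashed lines mark the lower quartile (7.50) and the median (8.99) of all probe sets. In Ptprc the differences are smaller in brighter probe sets, while in Mrc1, Lyz2 and Vsig4 bright probe sets rose too.

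At the level of single probe sets, 84 of the 180 were called higher and none lower, where 3.78% of all probe sets were called higher and 0.402% lower. Of the macrophage probe sets, the count called higher dropped to 7, 20 and 8 without Fn adult replicates 1, 2 and 3, and was 55, 39 and 102 without Wt P21 replicates 1, 2 and 3. Over all 209279 probe sets the count moved too, from 7912 to 1197, 2066 and 1452 without these Fn adult arrays. It was 4526, 3078 and 16990 without these Wt P21 arrays. Among the macrophage probe sets, differences were positive in 172, where 59.4% of all probe sets had positive ones. The groups did not overlap, with Fn adult above, in 147 of the 180, where they did so in 21.5% of all probe sets. By brightness, 16 of 53 macrophage probe sets under the lower quartile were called, 20 of 49 between it and the median and 48 of 78 above the median. Over all probe sets these bands held 2.66%, 4.39% and 3.99% called higher. The brightest probe set of a gene differed from the rest of the gene in several cases. That of Csf1r, probe set 5296087, had values of 11.58, 11.46 and 11.60 in Fn adult testes, against 11.73, 11.96 and 11.33 in Wt P21 testes. That of Adgre1, 5340055, had 9.92, 10.02 and 10.03 in Fn adult testes, against 10.39, 10.44 and 9.76 in Wt P21 testes. That of Ptprc, 5122514, had 10.99, 10.96 and 11.07 in Fn adult testes, against 11.17, 11.41 and 10.94 in Wt P21 testes. In all 3 the groups overlapped and the difference was slightly negative, from -0.21 to -0.13, and none was called. The brightest probe sets of the other 7 genes had positive differences, of which those of Mrc1, Lyz2 and Vsig4 were called, at 1.09, 1.01 and 1.46.

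The splicing index of a probe set, its log2 value minus the gene level on the same array, asked whether parts of a gene differed from the rest. None of the 180 macrophage probe sets was called by limma, where 0.00771% of all probe sets were called, and 39 (21.7%) had an unadjusted p under 0.05, where 9.56% of all probe sets did. The lowest adjusted p, 0.115, belonged to Ptprc probe set 4615486, whose index differed by -1.08. Such differences between bright and dim probe sets of 1 gene enter the index, and no exon numbers were used.

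Of 19 measured scavenger, Fc and adhesion receptors 4 rose, 15 did not pass and none fell, where 8.07% of all genes rose. Their median difference was 0.35. After quantile normalization 3 rose and Fcgr3 fell, and without Wt P21 replicate 3 Itgb2 and Fcgr4 rose too. The fatty acid receptor Cd36, which endothelium also carries, was 9.86-fold higher, at 11.53, 11.58 and 11.65 in Fn adult testes and 8.10, 7.72 and 9.04 in Wt P21 testes. Mertk, which binds dying cells for uptake and is also made by Sertoli cells, was 1.75-fold higher (limma, adjusted p = 0.0163). The inhibitory Fc receptor Fcgr2b was 1.70-fold higher (adjusted p = 0.0363), and the integrin Itgam rose by 0.45 at levels under the lower quartile (adjusted p = 0.0491). Cd36 passed in all 13 alternative settings, Mertk in 10, Fcgr2b in 6 of 13 and Itgam in 3 of 11. From the mean over its probe sets, Fcgr2b differed by 0.30 (adjusted p = 0.0624). The adaptors Tyrobp and Fcer1g had differences of 0.43 and 0.33 and did not pass. In the other direction, the Fc receptor Fcgr3 had levels of 10.57, 11.21 and 11.50 in Fn adult testes, against 11.80, 11.90 and 12.19 in Wt P21 testes. Its groups did not overlap, and its difference of -0.87 had an adjusted p of 0.0536, and -0.93 after quantile normalization had one of 0.0446. With the replicate number as a block the adjusted p was 0.0289. It was 0.0470 with a trended and robust eBayes and 0.0426 over genes above the lower quartile. Fcgr3 did not pass in the remaining settings. Trem2 and Marco also had lower values in Fn adult testes without overlap, by -0.22 and -0.14, and did not pass.

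Of 8 measured transcription factors of myeloid cells, 1 rose and 7 did not pass, where 8.07% of all genes rose. The median over them was 0.26, or 0.13 after quantile normalization and 0.15 without Wt P21 replicate 3, when Runx1 rose too. Irf8, which directs monocyte and macrophage development, had levels of 9.31, 8.93 and 8.73 in Fn adult testes, against 7.95, 7.78 and 8.54 in Wt P21 testes, and was 1.87-fold higher (limma, adjusted p = 0.0451). It passed in 5 of 12 alternative settings. Spi1, which encodes PU.1, had a difference of 0.37 without overlap (adjusted p = 0.165), and Runx1 one of 0.51 (adjusted p = 0.0525).

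Markers of other leukocytes were set beside these genes, since Ptprc is shared by all of them. Most of them lay at low levels, and the counts below stand against the 8.07% of all genes that rose. Of 7 T cell genes 1 rose, the co-receptor Cd4, by 0.66, while Cd3d, Cd3e and Cd3g of the T cell receptor complex did not pass. The summed T cell level, as log2 of the summed intensities, ran from 10.12 to 10.28 in Fn adult testes and from 9.72 to 10.05 in Wt P21 testes. Of 7 dendritic cell genes 1 rose, the integrin Itgax, which macrophages can also carry, by 0.71, and of 5 NK cell genes 1 rose, Nkg7, by 0.55. Their summed levels ran from 10.12 to 10.18 and from 8.96 to 9.07 in Fn adult testes, against 9.88 to 10.18 and 8.56 to 8.92 in Wt P21 testes. Cd4 and Nkg7 were not called after quantile normalization. Cd4 passed in 5 of 11 alternative settings, Nkg7 in 3 of 11 and Itgax in 8 of 11.

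None of 5 B cell genes, 6 neutrophil genes or 3 monocyte genes passed (limma), with median differences of -0.10, -0.18 and -0.20. At an unadjusted p under 0.05 stood 0, 1 and 0 of them, and S100a8 fell after quantile normalization, as did S100a8 and S100a9 without Wt P21 replicate 3. The largest differences were -0.18 in Cd79b and -0.16 in Cd79a for B cells, -0.55 in S100a9 and -0.43 in S100a8 for neutrophils, and -0.22 in Ly6c2 and -0.20 in Spn for monocytes. Of 5 mast cell genes Cpa3, a carboxypeptidase of mast cell granules, fell by 1.07 and none rose. The number of genes with a mean under the lower quartile was 6 of 7 for T cells, 3 of 5 for B cells, 5 of 5 for NK cells, 5 of 7 for dendritic cells, 2 of 3 for monocytes, 5 of 6 for neutrophils and 5 of 5 for mast cells. The summed level of the 10 macrophage genes ran from 12.85 to 12.88 in Fn adult testes and from 11.71 to 11.95 in Wt P21 testes. The part of other leukocytes in the level of Ptprc was not tested.

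**Figure D4:**
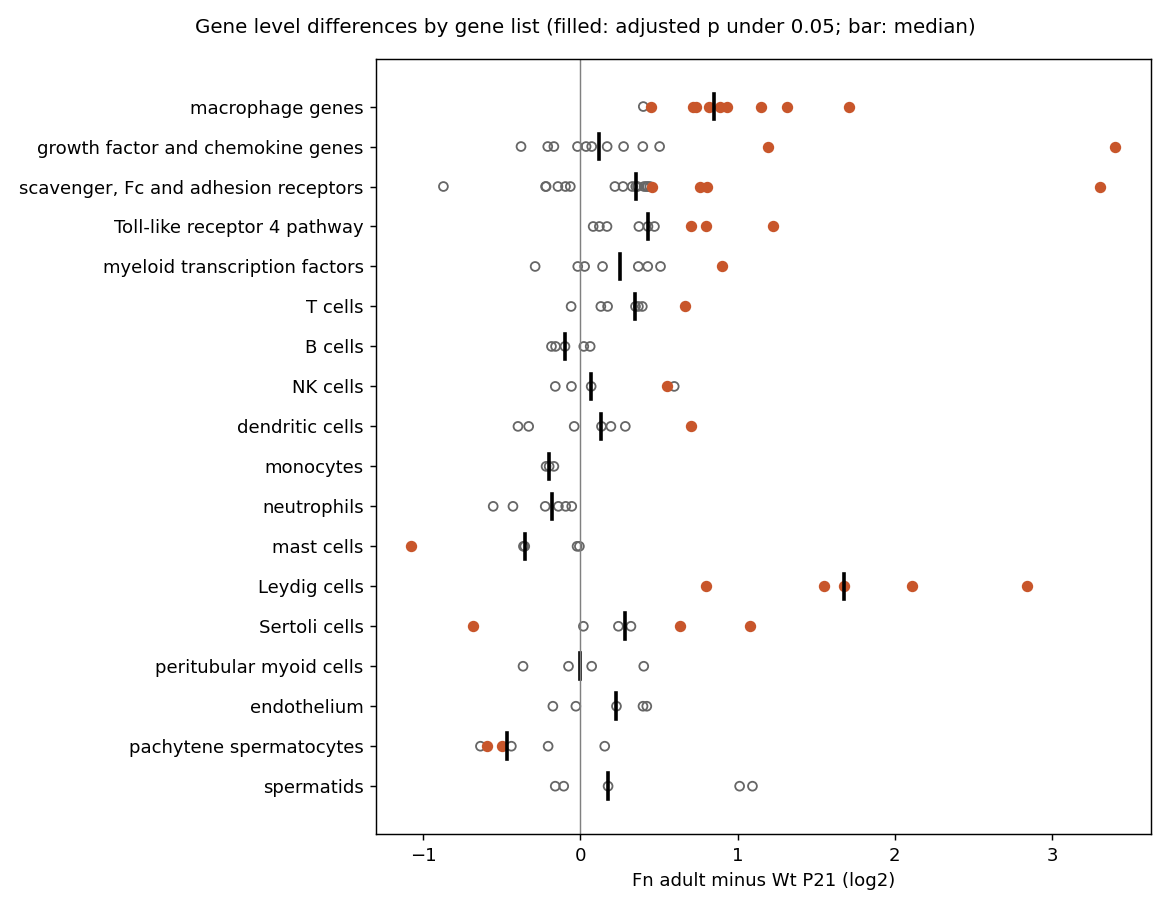
Difference in gene level (Fn adult minus Wt P21, log2, x axis) of each measured gene, by gene list (rows), with filled points for an adjusted p under 0.05 and a bar at the median of the list. The macrophage genes lie between 0.40 and 1.71. The B cell, neutrophil, monocyte and mast cell lists have medians under 0. Those of the T cell, dendritic cell and NK cell lists are 0.35, 0.14 and 0.07. The Leydig cell list has the highest median in the figure, 1.68.

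Leydig cells, which neighbour the interstitial macrophages and make testosterone, had 5 of 5 measured markers higher, with a median difference of 1.68. Their summed level ran from 14.59 to 14.80 in Fn adult testes and from 12.85 to 13.45 in Wt P21 testes. Hsd17b3, which makes testosterone in the adult testis, was 7.16-fold higher, Star 4.31-fold, Cyp11a1 3.20-fold and Cyp17a1 2.93-fold. Each of these passed in all 13 alternative settings. Hsd3b1 was 1.74-fold higher (limma, adjusted p = 0.0460) and passed in 7 of 13. It lost the call when any one of the Fn adult arrays was left out. Of 6 Sertoli cell markers Trf and Clu rose, by 1.08 and 0.63, and Amh fell by 0.68, with a median of 0.28, or 0.19 without Wt P21 replicate 3. Trf passed in 11 of 13 alternative settings, Clu in 8 of 13 and Amh in 6 of 12, and Clu and Amh lost the call when any one of the Fn adult arrays was left out. None of 4 peritubular myoid and none of 5 endothelial markers passed (limma), where 1 and 2 had an unadjusted p under 0.05. Without Wt P21 replicate 3, Cnn1 fell and Tek rose. Their medians were -0.000818 and 0.23, or -0.08 and 0.06 after quantile normalization and -0.12 and 0.28 without Wt P21 replicate 3, and their largest differences were 0.40 in Des, -0.36 in Cnn1, 0.42 in Tek and 0.40 in Vwf. Of 6 pachytene spermatocyte markers Ybx2 and Piwil1 fell, by 0.59 and 0.50, and each passed in 6 of 13 alternative settings, none of them with an Fn adult array left out. The median was -0.47, and -0.25 without Wt P21 replicate 3. None of 5 spermatid markers passed (median 0.18), 1 had an unadjusted p under 0.05, and the largest differences were 1.09 in Prm1 and 1.01 in Acrv1. Without Wt P21 replicate 3 both of these rose and the median was 0.33, and after quantile normalization it was 0.11. Of 4 red cell genes only 1, the enzyme Alas2, was measured with at least 3 probe sets, and it was 2.39-fold higher. Hbb-b1, read only where genes with at least 1 probe set were taken, went the other way, by -1.39 (limma, adjusted p = 0.0365). The part of these cell types in the rise of the macrophage genes was not tested.

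By their course over the 6 arrays, the genes most like the mean of the macrophage genes were Pgbd5, Akr1cl, Aldoc, Vamp8 and Prkd1. They were taken as the highest Pearson correlations among 7598 other genes above the median gene, and r ran from 0.996 to 0.999 over 6 arrays. The points share the 2 groups and the scale of the arrays. Vamp8 had levels of 10.39, 10.36 and 10.48 in Fn adult testes, against 9.67, 9.56 and 9.74 in Wt P21 testes, and Pgbd5 had 10.74, 10.47 and 10.67 in Fn adult testes, against 8.44, 8.22 and 8.70 in Wt P21 testes.

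Within the wild-type group, the third array read high for 8 of the 10 macrophage genes, by a median of 0.09 over the group mean, where the median over all genes was 0.10. In Wt P21 replicate 2 only 2 exceeded it, with medians of -0.10 for the macrophage genes and -0.11 for all genes. Among the Fn adult arrays the median deviations ran from -0.04 to 0.01.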

How the data were processed

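Trizol RNA of whole testes was copied to cDNA, amplified and biotinylated, per the labels. The authors deposited log2 intensities of 229581 probe sets for each array. Their notes name build mm8 and their methods the EASANA system. Background correction and normalization are not given in the sources used here, and the values were used as deposited. Of the probe sets, 209279 carried 1 gene symbol, 4446 several and 15856 none. Symbols were updated through RefSeq synonyms (GRCm38.p6), of which only the promoter windows' coordinates are used, and 45 of 16380 array symbols were not matched.

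Gene levels (median of at least 3 probe sets), single probe sets and splicing indices were each fitted over all features with lmFit and eBayes of limma 3.58.1 (R 4.3.3, statmod 1.5.0), with two-sided tests, Benjamini-Hochberg adjustment over all features and a threshold of 0.05. Errors printed beside differences are moderated SE. The number of arrays, 3 in a group, limits precision. The fit was tested on simulated data. Members and lists were chosen with earlier results of these data known. Named were all members, Lyz1, the ligands and partners Csf1, Il34, Cx3cl1, Tlr4 and Ly96, at most 4 called genes in a list (those that changed most) or, with none called, its 2 largest differences, and the 5 genes most correlated with the members. Other genes named, such as Hsd3b1, or Fcgr3 and others that did not pass, were singled out after their values were seen. Dazap1 was not analysed here, since the annotation used gave it no probe set, and it could not serve as a check of the genotypes. Alternatives were quantile normalization, each array left out, blocks by replicate number, a trended and robust eBayes, the mean of probe sets, brighter probe sets or genes, and genes with at least 1 probe set.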

Additional observations from a re-analysis of the deposited data

How the results depend on the processing

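Leaving out 1 array gave 5 to 9 called macrophage genes, 7 to 102 called macrophage probe sets and 0 called splicing indices, against 9, 84 and 0 over all arrays. The low gene counts came without Fn adult replicate 1, 2 or 3, when 325, 478 and 416 genes passed in all. The genes that then lost the call were Cd163, Cd68, Cx3cr1 and Adgre1, with adjusted p values between 0.0514 and 0.194. The called probe sets were 7, 20 and 8 without Fn adult replicates 1, 2 and 3, and 55, 39 and 102 without Wt P21 replicates 1, 2 and 3. Over all probe sets, 1197, 2066 and 1452 were then called higher without an Fn adult array. Without a Wt P21 array the counts over all probe sets were 4526, 3078 and 16990. From brighter probe sets only, 5 of the 7 macrophage genes that could be read rose, and Ptprc and Adgre1 lost the call. Of all genes read that way 1161 rose. Quantile normalization gave 8 genes, with Cd163 lost (limma, adjusted p = 0.0934), and 70 probe sets, where 826 genes and 5284 probe sets rose in all. With the mean of the probe sets all 10 genes rose, where 1999 genes rose in all, against 1227 in the main fit. With genes of at least 1 probe set 8 did, where 1110 rose in all. With the replicate number as a block, 8 genes and 57 probe sets were called, where 890 genes and 4543 probe sets rose in all. By the study, 3 independent experiments used different RNA preparations, and the array titles state no pairs. Deviations of same-numbered arrays had correlations of 0.24, -0.11 and -0.02 over all genes. With 3 arrays in a group, these values cannot decide whether the arrays were paired. The main fit took them as unpaired. No difference of a macrophage gene changed sign in any setting. Since the groups of all 10 genes did not overlap, leaving out an array could not change a sign. The replicate block, the trended and robust eBayes, and the settings on probe set number or on brighter genes left each difference as it was. Of the values for single genes under the alternatives 104 kept their side of the threshold, 19 lost the call and 1 gained it. The 104 include 10 settings in which Cd14 stayed uncalled. The causes were not tested.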
